A study of Mus musculus with 6 samples.

Results

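Muscle fibres contract when calcium leaves an internal store, the sarcoplasmic reticulum, and relax when it is pumped back. The genes of this cycle, with the inositol trisphosphate receptor that releases calcium in other cell types, were read from brown adipose tissue libraries of mice on a calorie-rich diet. The 10 genes were chosen by name and matched to 10 of the 45320 Ensembl identifiers in the tables. They were the pumps Atp2a1 and Atp2a2, the pump inhibitors Sln and Pln, the release channels Ryr1, Ryr2 and Itpr1, the voltage sensor Cacna1s, and the calcium buffers Casq1 and Casq2. All animals were C57BL/6 mice that were put on a high-fat, high-sugar diet when 4 weeks old and ate it for 4 weeks before they were split. The untreated group (samples 13, 14 and 15) stayed on that diet, and the treated group (samples 17, 33 and 35) ate it with RO5508887, a small-molecule inhibitor of the protease BACE1. The tables of samples 33 and 35 agreed in all 45320 values and were counted as 1 library, treated 33/35, so 3 untreated and 2 treated libraries were compared. Values are FPKM, fragments per kilobase of transcript and sequencing depth, which allow levels of different genes to be set side by side. Whole tissue was extracted. Whether each sample is a different animal is not labelled. The p-values cover the spread among these samples alone, and that spread may be technical.

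In a resting fibre the pump of the SERCA family, an ATPase, loads the reticulum, and calsequestrin binds calcium inside it. On excitation the voltage sensor in the surface membrane opens the ryanodine receptor, and the store empties. Fast skeletal fibres use SERCA1, the product of Atp2a1, whereas slow fibres and heart use SERCA2. RYR1 and calsequestrin 1 serve skeletal muscle, and calsequestrin 2 is used in heart and slow fibres. SERCA2 is also the housekeeping pump of the endoplasmic reticulum in other cells. In fat cells, futile cycling of calcium through SERCA has been described as a way to make heat without the uncoupling protein UCP1, and sarcolipin, the product of Sln, uncouples ATP use from transport in muscle.

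The libraries differed in their content of skeletal muscle transcripts. A list of 28 skeletal muscle markers that holds none of the 10 genes held 7.81% of the summed non-mitochondrial FPKM in untreated 14, 2.99% in treated 17 and 1.31% in treated 33/35. In untreated 13 and 15 it held 0.0323% and 0.0317%. All 28 markers were highest in untreated 14, then treated 17, then treated 33/35, with none listed at 0. Brown adipocyte markers were present in every library, and their list summed to 3962 FPKM in untreated 14 and to between 7890 and 10387 FPKM in the other 4. Of 8 cardiac markers, Nppa, Nppb and Myl7 stayed at or below 0.07 FPKM in all libraries, but Myh6 (28.9 FPKM), Actc1 (16.1), Tnnt2 (6.70) and Myl4 (12.1) were highest in untreated 14. These were the only 4 of the 8 highest there, and Tnni3 was not among them. Relative to untreated 14, the highest value on the cardiac list was 340% in treated 17 and 295% in treated 33/35. The cardiac list summed to 64.0 FPKM in untreated 14, 22.3 FPKM in treated 17 and 15.9 FPKM in treated 33/35, against 7.21 and 5.04 FPKM in untreated 13 and 15. The part of these transcripts in the levels of Atp2a2, Pln and Casq2, which heart also uses, was not tested. The 6 smooth muscle markers, each highest in untreated 14, summed to 179 FPKM there and to between 48.7 and 110 FPKM elsewhere. Depth in reads was unknown, but steps between low values put the libraries at 0.809 to 1.01 times the depth of untreated 13. In whole tissue, fewer cells of a type and less RNA per cell cannot be told apart.

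To see which genes were measurable where muscle transcripts were few, a level of 1 FPKM in both untreated 13 and untreated 15 was used. Atp2a1, Atp2a2, Ryr2 and Itpr1 reached it, and the other 6 did not. Ryr2 lay just inside with 2.20 and 2.95 FPKM, and Casq2 just outside with 1.255 and 0.958 FPKM. This split uses measured values and serves as a description. Of the 28 muscle markers, 13 also reached the level, so the level alone does not set a gene apart from muscle. The ratio to Ckm, the muscle creatine kinase, is given further on and does not do so either.

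**Figure D1:**
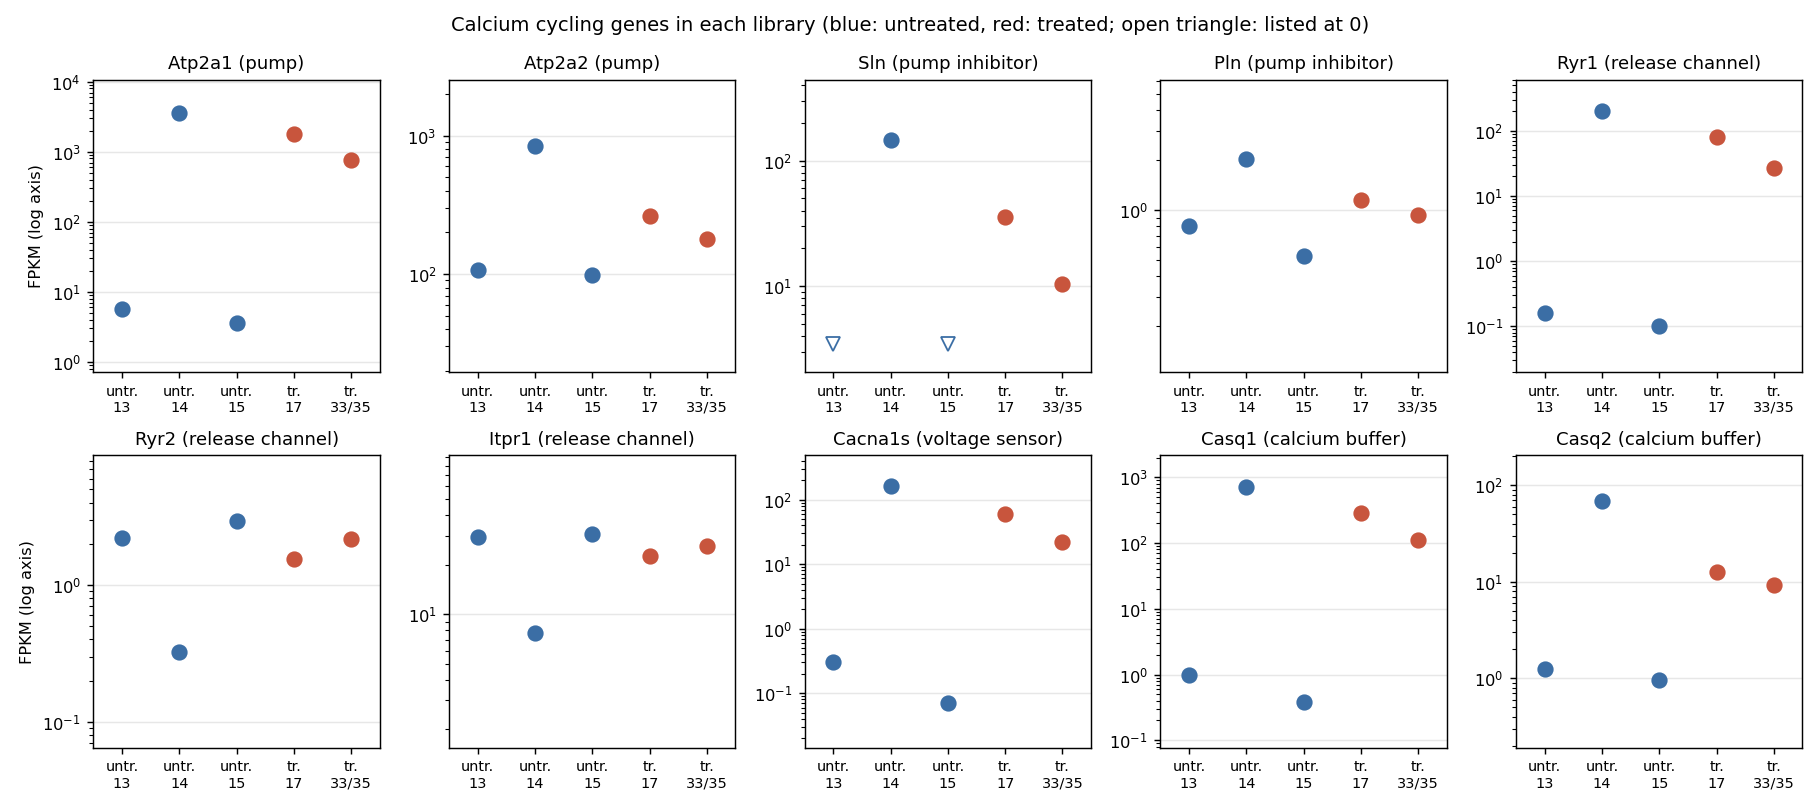
FPKM of each of the 10 genes on a log axis, 1 point per library, blue for untreated and red for treated, with open triangles where a gene was listed at 0. In 8 panels the values run from untreated 14 through treated 17 and treated 33/35 to untreated 13 and 15, whereas Ryr2 and Itpr1 are lowest in untreated 14 (0.323 and 7.72 FPKM).

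The pumps were the most abundant of the 10 genes, and which pump led depended on the library. Atp2a1, the pump of fast fibres (chromosome 7, 126445858 to 126463108, minus strand, GRCm38), measured 5.62, 3553 and 3.57 FPKM across untreated 13, 14 and 15. It measured 1803 and 751 FPKM in treated 17 and treated 33/35. Untreated 14 was highest and the other untreated libraries lowest, so the treated values fell inside the untreated range. Rabep2 overlaps Atp2a1 on the opposite strand and measured 6.64 and 7.09 FPKM in untreated 13 and 15, above Atp2a1 there. The labels do not say whether counting used strand, so reads of the 2 genes may be mixed at these low levels. How far their exons overlap was not examined. Atp2a2, the pump of slow fibres and of the general endoplasmic reticulum (chromosome 5, 122453513 to 122502225, minus strand), measured 107, 845 and 98.1 FPKM across the untreated libraries and 263 and 179 FPKM across the treated ones. Its level in untreated 14 was 8.26 times the mean of untreated 13 and 15, against 774 times for Atp2a1. Atp2a2 made up 87.9% and 91.5% of the summed FPKM of the 3 SERCA genes in untreated 13 and 15. In untreated 14, treated 17 and treated 33/35 its share was 19.2%, 12.7% and 19.1%, and Atp2a1 held 80.6%, 87.0% and 80.1%. Atp2a3, a pump of blood cells and endothelium, measured between 5.53 and 9.62 FPKM in all 5 libraries.

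The pump inhibitors were scarce in the libraries with few muscle transcripts. Sln, which encodes sarcolipin (chromosome 9, 53850164 to 53854560), was listed at 0 in untreated 13 and 15. It measured 147 FPKM in untreated 14, 35.5 FPKM in treated 17 and 10.3 FPKM in treated 33/35. A listed 0 can be a failed estimate, and with no read counts no detection limit can be given. Pln, which encodes phospholamban, the inhibitor of SERCA2 in heart and slow muscle (chromosome 10, 53337667 to 53345987), measured 0.798, 2.04 and 0.527 FPKM across the untreated libraries. The treated values were 1.14 and 0.928 FPKM. Pln thus stayed near 1 FPKM in all libraries, far below Atp2a2. Reads of Pln may be mixed with those of Cep85l, which overlaps it on the opposite strand and measured 4.03 to 19.9 FPKM, since the use of strand is not stated.

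The release channels did not share 1 order of libraries. Ryr1, the ryanodine receptor of skeletal muscle (chromosome 7, 29003344 to 29125179, minus strand), measured 0.162, 203 and 0.0996 FPKM across untreated 13, 14 and 15. It measured 81.4 and 26.7 FPKM in treated 17 and treated 33/35. Ryr2, the ryanodine receptor best known from heart and brain (chromosome 13, 11553102 to 12106945, minus strand), ran the other way. It measured 2.20, 0.323 and 2.95 FPKM across the untreated libraries and 1.55 and 2.17 FPKM across the treated ones. Itpr1, an inositol trisphosphate receptor that releases calcium after receptor signalling (chromosome 6, 108213096 to 108551109), measured 29.4, 7.72 and 30.8 FPKM without the drug. With the drug it measured 22.6 and 26.1 FPKM. For both Ryr2 and Itpr1 untreated 14 was lowest, followed by treated 17 and treated 33/35. This reverse order held for 10.8% of the genes tested. The order of Ryr1, from untreated 14 through treated 17 and treated 33/35 down to untreated 13 and 15, held for 8 of the 10 genes and for 12.9% of the genes tested.

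Itpr1 and Ryr2 were lowest in untreated 14, as were 11 of the 12 brown adipocyte markers. So were 5944 of all 13527 genes tested, so this trait is common. Itpr1 in untreated 14 was at 25.7% of the mean of untreated 13 and 15, and Ryr2 at 12.6%. Those 12 markers ranged from 2.90% to 83.7% on the same measure, with a median of 35.8%. In treated 17 Itpr1 was at 75.2% and Ryr2 at 60.2%, beside a marker median of 76.1%. In treated 33/35 they were at 86.7% and 84.3%, beside a marker median of 87.9%. The part of adipocyte content in these values was not tested. Among all ryanodine and inositol trisphosphate receptors, Itpr1 held 45.2% and 44.3% of the summed FPKM in untreated 13 and 15, and its paralog Itpr2 48.6% and 48.9%. In untreated 14 Ryr1 held 93.4%. Ryr1 held 60.7% in treated 17 and 28.5% in treated 33/35, where Itpr1 and Itpr2 together still exceeded it.

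**Figure D2:**
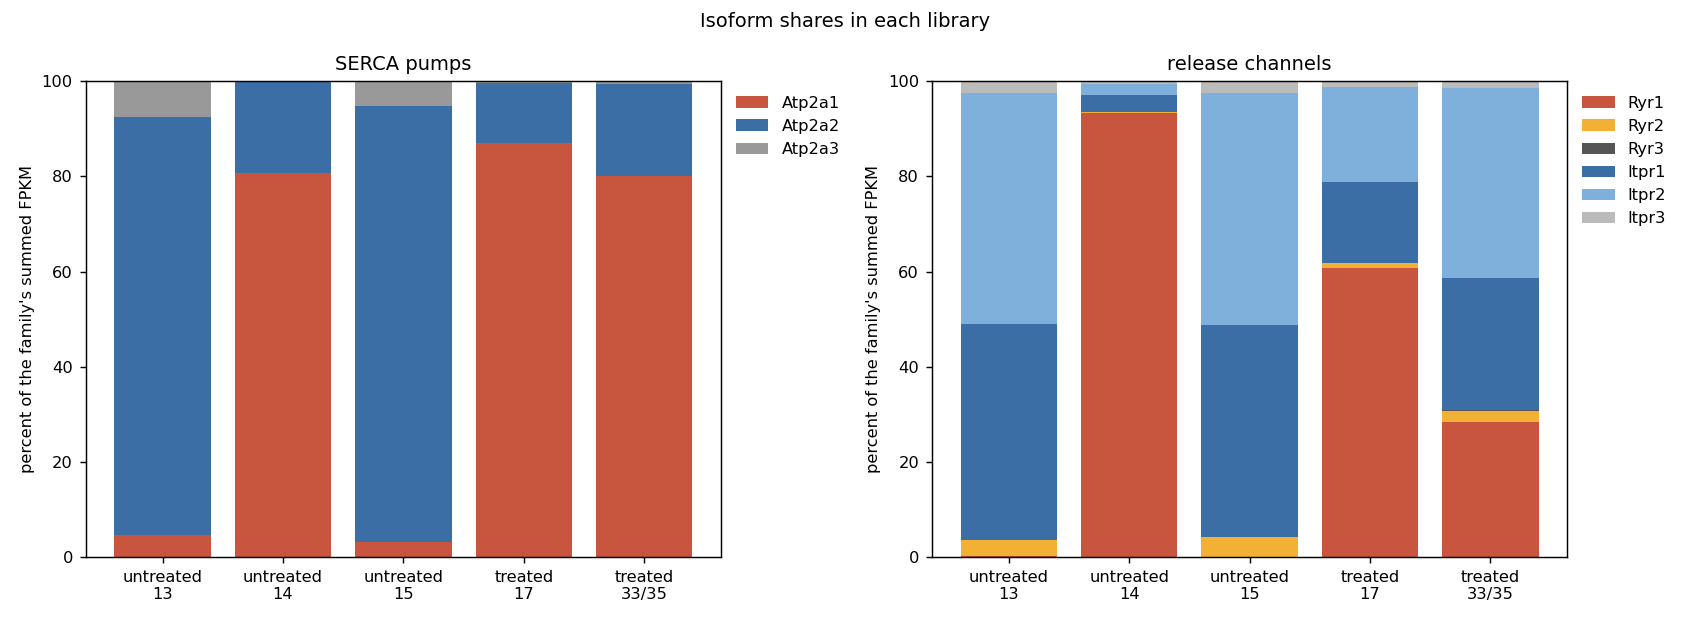
Share of each gene in the summed FPKM of its family, 1 bar per library, for the SERCA pumps and for the ryanodine and inositol trisphosphate receptors. Atp2a2 holds 87.9% and 91.5% of the pumps in untreated 13 and 15, and Ryr1 holds 93.4% of the channels in untreated 14 and 28.5% in treated 33/35.

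The voltage sensor and Casq1 followed Ryr1. Cacna1s, the pore subunit of the calcium channel that triggers Ryr1 (chromosome 1, 136052750 to 136119822), measured 0.302, 162 and 0.0715 FPKM across untreated 13, 14 and 15. Its treated values were 58.9 and 22.3 FPKM. A gene model on the opposite strand, Gm37759, overlaps Cacna1s and measured 22.3 FPKM in untreated 14, so the reads of both may be mixed. How far their exons overlap was not examined. Casq1, a calsequestrin of skeletal muscle (chromosome 1, 172209894 to 172219868, minus strand), measured 0.989, 718 and 0.384 FPKM without and 288 and 109 FPKM with the drug. Casq2, the calsequestrin of heart and slow fibres (chromosome 3, 102086415 to 102146514), measured 1.255, 68.0 and 0.958 FPKM without and 12.7 and 9.24 FPKM with the drug. Casq1 exceeded Casq2 in untreated 14 and in both treated libraries. In untreated 13 and 15 the order was the reverse, with Casq2 at 55.9% and 71.4% of the pair.

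The promoters of the paralog pairs whose levels went apart between libraries are shown for Ryr1 and Ryr2 and for Casq1 and Casq2. They cover the 250 bases before the RefSeq start on build GRCm38.p6, 5′ to 3′ on the strand of the gene, with E-boxes (CANNTG, the site of myogenic and other basic helix-loop-helix factors, which reads alike on both strands) in capitals.
Ryr1, chr7:29125152-29125401, minus strand: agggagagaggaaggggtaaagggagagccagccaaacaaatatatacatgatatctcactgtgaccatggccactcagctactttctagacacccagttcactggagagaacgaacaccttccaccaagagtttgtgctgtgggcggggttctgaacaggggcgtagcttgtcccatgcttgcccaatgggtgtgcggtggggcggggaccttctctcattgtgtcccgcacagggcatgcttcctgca
Ryr2, chr13:12106946-12107195, minus strand: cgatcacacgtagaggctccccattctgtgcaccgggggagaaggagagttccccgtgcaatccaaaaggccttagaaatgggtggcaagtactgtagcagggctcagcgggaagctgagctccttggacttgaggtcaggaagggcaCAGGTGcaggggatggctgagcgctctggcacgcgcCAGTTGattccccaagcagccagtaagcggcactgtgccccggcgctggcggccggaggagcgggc
Casq1, chr1:172219896-172220145, minus strand: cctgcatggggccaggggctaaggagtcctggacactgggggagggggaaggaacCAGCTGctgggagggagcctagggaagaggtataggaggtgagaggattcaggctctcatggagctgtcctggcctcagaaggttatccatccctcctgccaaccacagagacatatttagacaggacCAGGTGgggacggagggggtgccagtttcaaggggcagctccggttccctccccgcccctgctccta
Casq2, chr3:102086165-102086414, plus strand: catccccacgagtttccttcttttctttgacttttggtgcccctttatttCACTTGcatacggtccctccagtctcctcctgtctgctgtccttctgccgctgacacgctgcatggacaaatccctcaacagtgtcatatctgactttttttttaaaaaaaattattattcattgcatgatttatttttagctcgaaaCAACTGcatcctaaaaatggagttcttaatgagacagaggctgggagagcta
The Ryr1 window held 0 E-boxes and the other windows 2 each. Among 32851 promoter windows of this length, 66.2% held at least 1 and 31.8% at least 2, so these counts are common. The consensus of MEF2, a muscle transcription factor, was searched on both strands. Of these 4 windows Casq2 held 1 match, which starts at base -69 from the start site, and 2.92% of all windows held one. Atp2a1, Pln and Cacna1s also had an entry and held 1, 1 and 2 E-boxes and 0 matches to MEF2. Atp2a2, Sln and Itpr1 had no entry. A match describes the sequence and shows no binding.

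Atp2a1, Casq1, Ryr1, Cacna1s, Sln and Casq2 did not scale by 1 common factor between the libraries. In treated 17, Atp2a1 was at 50.7% of its level in untreated 14, Casq1 and Ryr1 both at 40.1%, Cacna1s at 36.5%, Sln at 24.1% and Casq2 at 18.7%. Markers of fast fibres ranged from 40.9% to 46.5% there and markers of slow fibres from 21.3% to 23.8%. Casq2 and Sln were thus nearest to the slow markers, and Atp2a1 lay above the range of the fast ones. In treated 33/35, Atp2a1 was at 21.1%, Casq1 at 15.2%, Cacna1s at 13.8%, Casq2 at 13.6%, Ryr1 at 13.2% and Sln at 7.01%. Fast markers there ranged from 12.0% to 24.4% and slow markers from 10.7% to 14.2%, and Sln lay below both. For Atp2a2 the mean of untreated 13 and 15 was first taken off, which left 743 FPKM in untreated 14. The same difference was 160 FPKM in treated 17 and 77.1 FPKM in treated 33/35, or 21.6% and 10.4% of that in untreated 14. The ratio of summed fast to summed slow markers was 2.20 in untreated 14, 4.33 in treated 17 and 3.36 in treated 33/35. In these single libraries the mix of fibres and the expression within fibres cannot be told apart, and the part of either in the gene levels was not tested.

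**Figure D3:**
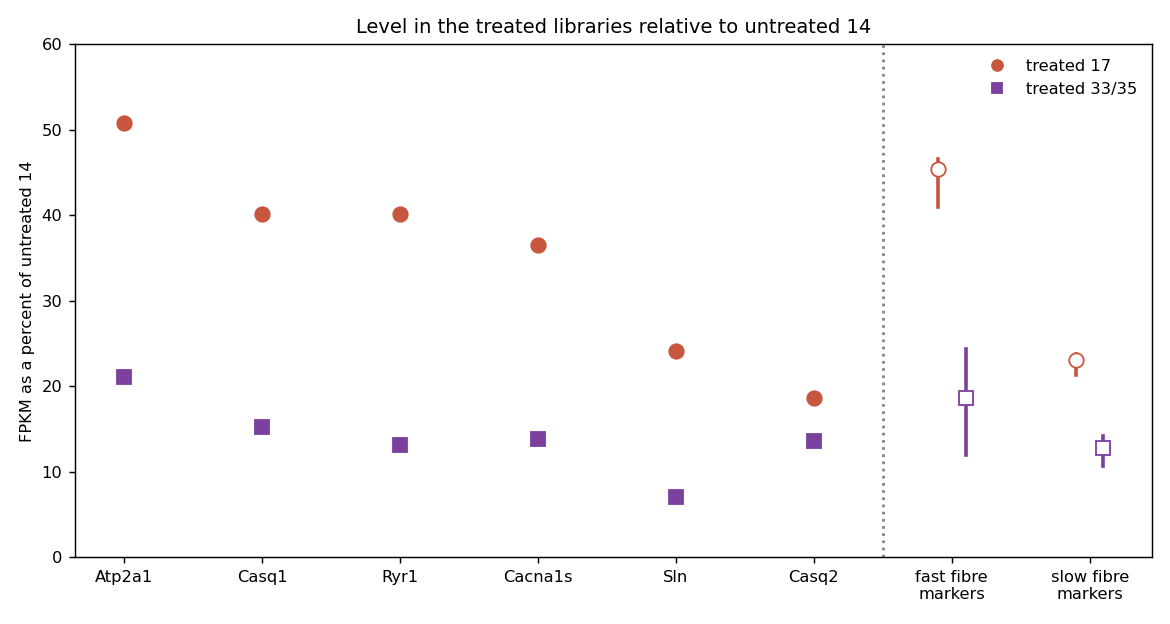
FPKM in treated 17 (circles) and treated 33/35 (squares) as a percent of untreated 14, for 6 genes, with the median (open symbol) and the range (line) of 9 fast and 6 slow fibre markers. In treated 17 Atp2a1 is at 50.7% and Casq2 at 18.7%, and in treated 33/35 Sln is lowest at 7.01%.

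Each gene was also set against Ckm, to see which of the low values in untreated 13 and 15 kept their proportion to a muscle transcript. This measure was chosen after the values had been seen. Per 100 FPKM of Ckm, Ryr1 measured 7.42 FPKM in untreated 14, 6.45 in treated 17 and 5.03 in treated 33/35, and 7.19 and 6.80 in untreated 13 and 15. Against Tnnt3, the troponin T of fast fibres, the same gene measured 4.92, 4.29 and 3.19 FPKM per 100 FPKM, and 2.72 and 2.14 in untreated 13 and 15. How steady the ratio of Ryr1 was thus depended on the marker it was set against. Casq1 measured 26.3, 22.8 and 20.6 FPKM per 100 FPKM of Ckm in untreated 14, treated 17 and treated 33/35, and 43.9 and 26.3 in untreated 13 and 15. Cacna1s measured 5.91, 4.67 and 4.21 in the same order, and 13.4 and 4.88 in untreated 13 and 15. For Atp2a1 the ratio was 130, 143 and 141 in the libraries with more muscle transcripts and 249 and 244 in untreated 13 and 15. Against Tnnt3 Atp2a1 measured 86.1, 95.1 and 89.6 per 100 FPKM in those libraries and 94.4 and 76.6 in untreated 13 and 15. Tnnt3 has the second most similar profile to Atp2a1 of all genes compared, so an even ratio follows from that choice, and the 2 markers give different pictures of Atp2a1 in untreated 13 and 15.

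Sln measured 5.39, 2.82 and 1.94 FPKM per 100 FPKM of Ckm in untreated 14, treated 17 and treated 33/35, and was listed at 0 in untreated 13 and 15. Casq2, Pln, Atp2a2, Itpr1 and Ryr2 had higher ratios in untreated 13 and 15 than in the other 3 libraries. Casq2 measured 55.7 and 65.4 FPKM per 100 FPKM of Ckm there, against 2.49, 1.01 and 1.74 in untreated 14, treated 17 and treated 33/35. Pln measured 35.4 and 36.0, against 0.0745, 0.0906 and 0.175. Atp2a2 measured 4734 and 6701, against 30.9, 20.8 and 33.8. Itpr1 and Ryr2 had still wider gaps, with Itpr1 at 1303 and 2104 in untreated 13 and 15 and 0.282 in untreated 14. Ckm itself was 1471 times as high in untreated 14 as in the mean of untreated 13 and 15. A gene that rose less than Ckm thus tends to have a higher ratio in untreated 13 and 15. The muscle marker Myl1 (21.1 times) rose less too, as did Casq2 (61.5 times) and Atp2a1 (774 times). The ratio thus does not set Casq2 or Pln apart from muscle transcripts, and both lay below 1 FPKM in at least 1 of untreated 13 and 15.

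In the comparison of treated with untreated libraries 0 of the 10 genes passed the test. All 10 passed the filter of a mean of at least 1 FPKM, for Sln, Ryr1, Cacna1s and Casq1 through untreated 14 and the treated libraries, and for Pln through untreated 14 and treated 17. In limma's test over 13527 genes, 0.0444% of all genes and 0 of the 10 passed an adjusted p under 0.05, and 0 had an unadjusted p under 0.05. Group ranges overlapped for all 10 genes, and they did not overlap for 8.68% of the genes tested. On the log2(FPKM + 0.5) scale, which understates changes of low genes, all 10 had higher means in the treated group in the reported fit, and the median difference on that scale was 1.79. Pln turned to -0.52 under quantile normalization, and 8 of the 10 genes, all but Atp2a1 and Casq1, turned negative under at least 1 of the other fits tried. Over all genes tested, 8704 had higher and 4823 lower means, with a median of 0.06. On the FPKM scale 3 of the 10 had higher and 7 lower means with the drug, so the direction rests on the scale.

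Atp2a1, Casq1, Ryr1, Cacna1s, Sln and Casq2 had log2 differences of 1.02 or more, each smaller than 2 standard errors. Atp2a1 averaged 1188 ± 2049 FPKM (SD, n = 3) in untreated libraries, against 1277 ± 744 FPKM (SD, n = 2) with the drug, a difference of 4.71 on the log2 scale (SE 3.28; adjusted p = 1 by limma). Casq1 had a log2 fold change of 4.18 (SE 3.22), Ryr1 3.45 (SE 2.90) and Cacna1s 3.13 (SE 2.75). Sln averaged 49.1 ± 85.0 FPKM (SD, n = 3) in untreated libraries, against 22.9 ± 17.8 FPKM (SD, n = 2) with the drug, or 2.57 as a log2 fold change (SE 2.86). Casq2 averaged 23.4 ± 38.6 and 11.0 ± 2.45 FPKM, or 1.02 as a log2 fold change (SE 1.87). For Sln and Casq2 the mean was lower with the drug on the FPKM scale and higher on the log2 scale. In each of these 6 genes untreated 14 was the highest library and untreated 13 and 15 the lowest.

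Atp2a2, Itpr1, Ryr2 and Pln had log2 differences of 0.33 or less, also smaller than 2 standard errors. In all 10 genes the FPKM group means lay closer together than the SD of the untreated libraries. Atp2a2 averaged 350 ± 429 FPKM (SD, n = 3) in untreated libraries, against 221 ± 58.8 FPKM (SD, n = 2) with the drug, a difference of 0.07 on the log2 scale (SE 1.07; adjusted p = 1 by limma). Itpr1 averaged 22.6 ± 12.9 and 24.3 ± 2.45 FPKM, or 0.33 as a log2 fold change (SE 0.67). Ryr2 averaged 1.82 ± 1.35 and 1.86 ± 0.439 FPKM, or 0.25 as a log2 fold change (SE 0.69). Pln averaged 1.12 ± 0.805 and 1.04 ± 0.152 FPKM, or 0.03 as a log2 fold change (SE 0.47). All 10 genes had an adjusted p of 1.

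The differences moved with single untreated libraries. Without untreated 15 that of Atp2a1 was 2.98, of Casq1 2.44, of Ryr1 2.02, of Cacna1s 1.69, of Sln 1.20 and of Casq2 0.048. Untreated 13 had a like weight, with 0.18 for Casq2 without it, and 0 of the 10 genes passed without either. Without untreated 14, 6 of the 10 genes rose with the drug in limma's test, and 1.11% of all genes tested rose: Atp2a1 by 7.87 on the log2 scale (adjusted p = 0.0146), Casq1 by 7.28 (0.0198), Ryr1 by 6.23 (0.0263), Cacna1s by 5.77 (0.0261), Sln by 5.30 (0.0476) and Casq2 by 2.83 (0.0206). The filter was applied again in that fit, and Casq1, Ryr1, Cacna1s and Sln passed it through the treated libraries alone. A fall could thus not have been called for these genes. All 28 skeletal muscle markers rose in that fit too, and there the drug cannot be told apart from the muscle content. The value of Sln was taken against libraries listed at 0 and depends on the added 0.5. Atp2a2 had a log2 fold change of 1.08 (adjusted p = 0.143), with 263 and 179 FPKM above 107 and 98.1 FPKM. Itpr1 and Ryr2 turned to -0.30 and -0.38 (adjusted p = 0.411 and 0.595), and Pln no longer passed the filter. Both treated libraries lay below untreated 13 and 15 for Itpr1 (22.6 and 26.1 against 29.4 and 30.8 FPKM) and for Ryr2 (1.55 and 2.17 against 2.20 and 2.95 FPKM). The share of all genes that part in this way without untreated 14 was not counted, so nothing is read from it. With the mean log2 level of the muscle markers as a covariate, an alternative fit, Atp2a2 and Casq2 were called as lower with the drug, at log2 fold changes of -1.26 (adjusted p = 0.0130 by limma) and -1.33 (0.0195), and Itpr1 and Ryr2 as higher, at 1.15 (0.0137) and 1.07 (0.0482). Of all genes 13.6% were called in that fit. It takes the log2 level of each gene as a straight line in the covariate. A gene with a level of its own outside muscle need not follow such a line. Whether these genes follow it was not tested, so the calls cannot be assigned to the drug.

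**Figure D4:**
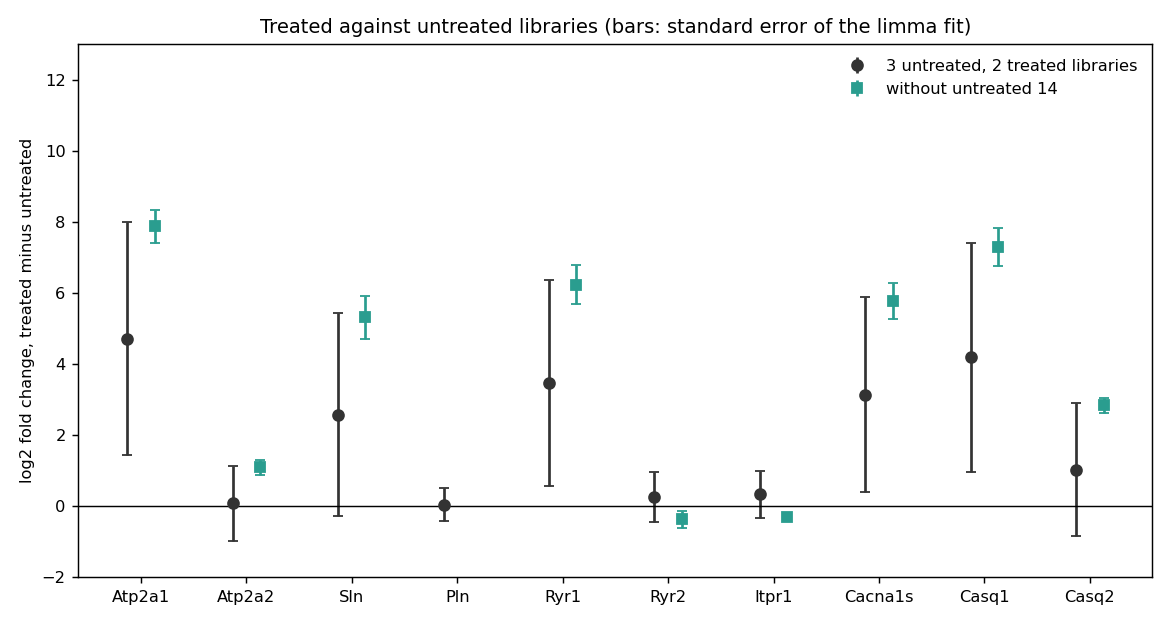
Log2 fold change of each gene, treated minus untreated, with bars for the standard error of the limma fit, from all 5 libraries (circles) and without untreated 14 (squares). Without untreated 14 the value of Atp2a1 moves from 4.71 to 7.87 and that of Itpr1 from 0.33 to -0.30, and Pln has no second point because it no longer passed the filter.

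The balance within 4 pairs of related genes, called isoform ratios here, was compared as a log2 ratio in each library. Of these, only the pump pair set a gene of fast fibres against one of slow fibres and heart. The calsequestrin pair set a gene of skeletal muscle against one of heart and slow fibres. For Atp2a1 to Atp2a2 it was -4.13, 2.07 and -4.60 in untreated 13, 14 and 15, and 2.78 and 2.06 in treated 17 and treated 33/35. The treated mean lay above the untreated mean by 4.64, with an exact two-sided permutation p of 0.3. For Casq1 to Casq2 the ratios were -0.24, 3.39 and -0.72 without and 4.45 and 3.50 with the drug. Both treated values exceeded all untreated ones here, and the exact p of 0.2 is near the smallest possible with 3 against 2 libraries, 0.1. Ryr1 to Ryr2 differed by 3.20 (exact permutation p = 0.5) and Sln to Pln by 2.54 (exact permutation p = 0.4). Adjusted over the 4 pairs, each p was 0.5, and the groups of the other 3 pairs overlapped.

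Other genes of calcium handling, listed by role and chosen with earlier results known, were read from the same fit. Of 63 genes 60 were matched and 54 tested, and 0 passed in either direction, with 0 at an unadjusted p under 0.05. Of the 54, 32 had higher and 22 lower log2 means with the drug, with a median of 0.07, close to the 0.06 of all genes tested. On the FPKM scale 11 of the 54 had higher and 43 lower means, so here too the direction rests on the scale. Of all 13527 genes tested, 8704 had higher log2 means and 7232 had higher FPKM means. Without untreated 14, 7 of the 54 rose, namely Trdn, Jsrp1, Tmem38a, Hrc, Mrln, Stac3 and Pvalb. Trdn, Jsrp1, Hrc, Mrln and Stac3 passed the filter there through the treated libraries alone, so a fall could not have been called for them. In that fit 1.11% of all genes tested and all 28 skeletal muscle markers rose, and the drug cannot be told apart from the muscle content.

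Among partners of the release channel, Trdn (triadin, which ties calsequestrin to the channel) measured 0.0744, 222 and 0.0951 FPKM across untreated 13, 14 and 15 and 79.5 and 28.8 FPKM across the treated libraries. Jsrp1, a protein of the junctional reticulum, measured 0, 271 and 0.118 FPKM and 93.8 and 31.0 FPKM. Tmem38a, a potassium channel of the muscle reticulum, measured 2.53, 419 and 2.51 FPKM and 152 and 55.7 FPKM. These 3 repeated the order of Ryr1. In this role 10 of 12 tested genes had higher log2 means with the drug, and the median was 1.10. On the FPKM scale 2 had higher and 10 lower means. Itpr2, by contrast, measured 31.5, 4.72 and 34.0 FPKM without and 26.8 and 37.4 FPKM with the drug, and was lowest in untreated 14 like Itpr1.

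Among pump regulators, Hrc, a calcium binder of the reticulum, measured 0.253, 260 and 0.185 FPKM without and 93.4 and 34.6 FPKM with the drug. Mrln, which encodes myoregulin, an inhibitor of SERCA in skeletal muscle, was listed at 0 in untreated 13 and 15, as Sln was. It measured 59.9 FPKM in untreated 14, 17.5 FPKM in treated 17 and 6.85 FPKM in treated 33/35. Thus Sln and Mrln were both listed at 0 where muscle transcripts were few, whereas Pln measured 0.798 and 0.527 FPKM in untreated 13 and 15. S100a1, a calcium sensor that binds SERCA and the ryanodine receptor, was abundant in all 5 libraries, with 407, 170 and 383 FPKM without and 324 and 400 FPKM with the drug.

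Among surface channel genes, Stac3, which couples the voltage sensor to its partners, measured 0.746, 224 and 0.544 FPKM without and 87.6 and 27.3 FPKM with the drug. All 6 tested genes of this role had higher log2 means with the drug, with a median of 1.36. On the FPKM scale 1 had a higher mean and 5 had lower means. Pvalb, the calcium buffer parvalbumin of fast fibres, measured 2.14, 1757 and 1.66 FPKM without and 862 and 347 FPKM with the drug. The 8 genes of calcium binding inside the endoplasmic reticulum, which every cell uses, stood apart from these. Calr (calreticulin) measured 166, 129 and 143 FPKM without and 124 and 136 FPKM with the drug, and Hsp90b1 had a log2 fold change of -0.20 (SE 0.19). In that role 3 genes had higher and 5 lower log2 means, with a median of -0.053, and 2 had higher and 6 lower means on the FPKM scale.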

How the data were processed

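Per the labels' protocols, Trizol was used to extract total RNA from whole tissue, and libraries followed an Illumina total RNA protocol. Per the file headers, the authors deposited FPKM, in 1 table per sample. The submitters' processing notes name CASAVA 1.7 and GRCm38. Aligner, quantifier and annotation release are not given in the sources used here. Symbols and positions came from GENCODE M21, which held 44395 of the 45320 identifiers. The 13527 genes whose mean over the 5 libraries reached 1 FPKM were compared on log2(FPKM + 0.5) with limma 3.58.1 in R 4.3.3, with a variance trend, two-sided, Benjamini-Hochberg adjusted p under 0.05. The fit was tested on simulated data. Isoform ratios were compared with exact permutation tests. Python 3.11.15, numpy 2.4.6, pandas 2.3.3 and matplotlib 3.10.9 were used. The 10 genes, the other lists and the tests were chosen with earlier results of these data known. All 10 genes were named, and of the other calcium genes those past the threshold, or at most 3 a role with the smallest p. Itpr2, S100a1 and Atp2a3, and the ratios to Ckm and Tnnt3, were chosen after their values were seen. Strit1, Erln and Arln were not matched to an identifier and are not analysed here.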

Additional observations from a re-analysis of the deposited data

How the results depend on the processing

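No paired analysis was possible because the groups share no replicate number. The count of the 10 genes called was 0 in the reported fit and under each change of pseudocount, filter, scaling, variance model, sample weights, threshold and counting of the identical tables. Leaving out 1 library at a time gave 0 to 6 for the 10 genes, 0 to 7 for the other calcium genes and 0 to 158 for all genes, with each highest count without untreated 14. All genes gave 6 in the reported fit, 2 with a pseudocount of 0.1, 0 without a filter and 10 with sample weights. With the mean log2 level of the muscle markers as a covariate, 4 of the 10 genes, 12 other calcium genes and 1833 genes in all (13.6%) were called. With their summed FPKM as the covariate these counts were 3, 13 and 1750 (12.9%). The cause of these changes was not tested. In these 2 covariate fits Atp2a2 was called as lower (-1.26 and -1.21, both adjusted p = 0.0130), and so was Casq2 (-1.33 and -1.23, adjusted p = 0.0195 and 0.0267). The log2 fold change was -1.02 and -0.89 for Sln and 0.59 and 0.75 for Atp2a1, neither called. It was -0.47 and -0.45 for Pln, -0.19 and -0.056 for Ryr1 and -0.32 and -0.19 for Cacna1s. Itpr1 was called as higher in both (1.15 and 1.12) and Ryr2 in the first (1.07). Leaving out 1 library gave 2.98 to 7.87 for Atp2a1, 2.44 to 7.28 for Casq1, 2.02 to 6.23 for Ryr1, 1.69 to 5.77 for Cacna1s, 1.20 to 5.30 for Sln and 0.048 to 2.83 for Casq2, each lowest without untreated 15 (Sln equally without 13) and highest without untreated 14. It gave -0.47 to 1.08 for Atp2a2, -0.24 to 0.13 for Pln (-0.075 without untreated 13, -0.071 without treated 17), -0.38 to 0.65 for Ryr2 and -0.30 to 0.66 for Itpr1. Counting the identical tables as 2 samples gave -0.023 for Atp2a2 and -0.0039 for Pln, and quantile normalization gave -0.52 for Pln. Sample weights gave -0.28 for Ryr2 and -0.25 for Itpr1. The isoform ratios kept their direction under the other pseudocounts and without each library, and moved by less than 1 pooled within-group SD of the log2 ratios, which is wide. Leaving out 1 library gave differences of 3.45 to 6.79 for Atp2a1 to Atp2a2, 2.40 to 4.45 for Casq1 to Casq2, 1.37 to 6.61 for Ryr1 to Ryr2 and 1.28 to 4.89 for Sln to Pln. A split level of 0.5 FPKM admits 6 of the 10 genes and one of 2 FPKM admits 4, as 1 FPKM does. Without read counts, values near or at 0 carry no limit of detection.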

Other observations

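Calcium entry and mitochondrial uptake genes were measured in all 5 libraries. Stim1, the sensor of store depletion, measured 34.3, 96.3 and 35.8 FPKM across untreated 13, 14 and 15 and 54.8 and 40.1 FPKM in treated 17 and treated 33/35. Orai3, a channel that Stim proteins open, was lowest in untreated 14, with 8.56 FPKM against 18.8 and 15.5 FPKM in untreated 13 and 15. Mcu, the pore of the mitochondrial calcium uniporter, measured 8.17, 22.2 and 8.37 FPKM without and 11.3 and 10.7 FPKM with the drug. Letm1, an ion exchanger of the inner mitochondrial membrane, measured 80.9, 21.7 and 73.3 FPKM without and 58.3 and 55.3 FPKM with the drug. Of 5 tested store-operated entry genes and 8 mitochondrial ones, 0 passed limma's test, and 0 had an unadjusted p under 0.05. These genes were named after their values were seen.

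For each of the 10 genes, the gene with the most similar profile was the one with the smallest root mean square difference of centred log2 values over the 5 libraries. It was Pvalb for Atp2a1 (0.0992), Mylk2 for Ryr1 (0.0706), Hspb7 for Cacna1s (0.0737), Myot for Casq1 (0.172), Pcp4l1 for Casq2 (0.0817) and Fitm1 for Sln (0.224). It was Dapk2 for Atp2a2 (0.0669), Atg4a for Pln (0.0423), Hk1 for Ryr2 (0.0636) and Nudt12 for Itpr1 (0.0165). Nudt12 measured 37.2, 9.77 and 39.9 FPKM without and 29.1 and 33.4 FPKM with the drug. All these profiles share the same 5 libraries, and with so few libraries many genes lie close.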
